A study of Homo sapiens with 12 samples.

Results

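The effect of a lower glucose supply in the presence of cariporide was measured in a series of 12 libraries. The 3 named LGCAR were set against the 3 named CAR. Both groups were MDA-MB-231 cells, an established line of mesenchymal, triple-negative breast cancer with the genotype given as wild type. CAR cells had medium with 10 mM glucose and LGCAR cells medium with 5 mM, each with 25 µM cariporide for 48 h, so the drug was common to both groups. All cells were kept in RPMI medium with fetal bovine serum. The other 6 libraries had no drug: NG (10 mM glucose) and LG (5 mM glucose), 3 of each. The libraries were chosen by these labels alone, and all 15104 of the 40929 gene symbols that passed a filter on low counts were tested. The labels do not say whether a group's 3 libraries came from different cultures, so p-values measure the spread between these libraries, which may be technical.

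Cariporide is a drug that slows the export of protons from the cell. Cells read their glucose supply in part through MondoA and ChREBP, transcription factors that enter the nucleus when glucose 6-phosphate is plentiful and bind, with their partner MLX, to paired E-box sequences called carbohydrate response elements. Their best known target is TXNIP, an arrestin-like protein that slows glucose uptake, with its relative ARRDC4. A shortage of sugar can also reach the endoplasmic reticulum, where glycoproteins fold, and the nutrient-responsive factor ATF4.

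The LGCAR libraries differed from the CAR libraries in make-up as well as in treatment. CAR libraries held 22721107 to 24837409 counts and LGCAR libraries 18069004 to 20464308. Cytosolic ribosomal RNA took 7.87% ± 0.723 of the counts in CAR and 10.2% ± 1.12 in LGCAR, mitochondrial ribosomal RNA 3.12% ± 0.268 and 3.95% ± 0.116, and messenger RNA of the mitochondrial genome 6.26% ± 0.535 and 5.19% ± 0.283 (SD, n = 3 each). None of these ranges overlapped between the groups. CAR 1 stood apart from the other 5 libraries on the second principal component of these 6 libraries, while the first, with 30.7% of the variance, separated CAR from LGCAR.

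**Figure D1:**
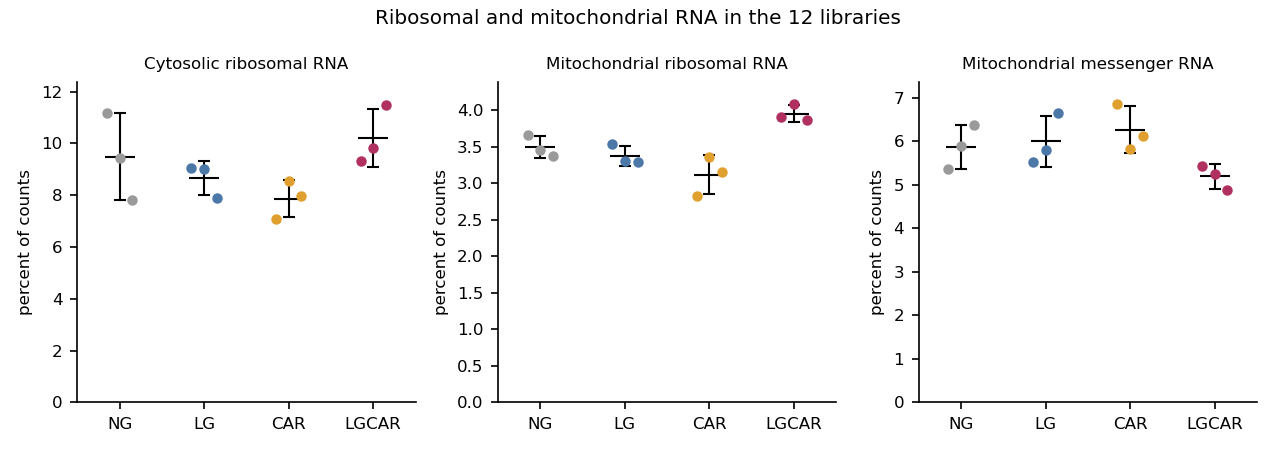
Share of counts (percent, vertical axis) taken by cytosolic ribosomal RNA, mitochondrial ribosomal RNA and messenger RNA of the mitochondrial genome in each library of NG, LG, CAR and LGCAR; points are libraries and bars the mean ± SD. LGCAR lies above CAR for both kinds of ribosomal RNA (10.2% against 7.87% for the cytosolic kind) and below it for mitochondrial messenger RNA (5.19% against 6.26%).

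Lower glucose in the presence of cariporide changed 249 of the 15104 genes, which is 1.65% of those tested (quasi-likelihood test of edgeR, Benjamini-Hochberg adjusted p under 0.05, the threshold of every call here). Of these, 147 (0.973% of genes tested) were higher and 102 (0.675%) were lower in LGCAR. The changes were small: the median size was 0.35 on the log2 scale, against 0.11 over all genes tested, 34 of the called genes passed 1.5-fold and 11 passed 2-fold, 6 of them higher and 5 lower. In all 249 the 3 LGCAR libraries lay outside the range of the 3 CAR libraries, as they did in 25.3% of all genes tested. The split between directions depended on the scaling. Higher genes made up 59.0% of the calls with the scaling used here, 44.4% with upper-quartile scaling and 26.8% with library totals alone, and 39.6% without the filter on low counts, and all 249 genes kept the sign of their change under each of these. With 1 library left out, 190 genes were called without CAR 2, 178 without CAR 1, 80 without CAR 3, 61 without LGCAR 1, 56 without LGCAR 3 and 49 without LGCAR 2. With the share of cytosolic ribosomal RNA as a covariate 18 genes were called, 16 of them among the 249. The share did not overlap between the groups, so what goes with it and what goes with glucose cannot be told apart.

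**Figure D2:**
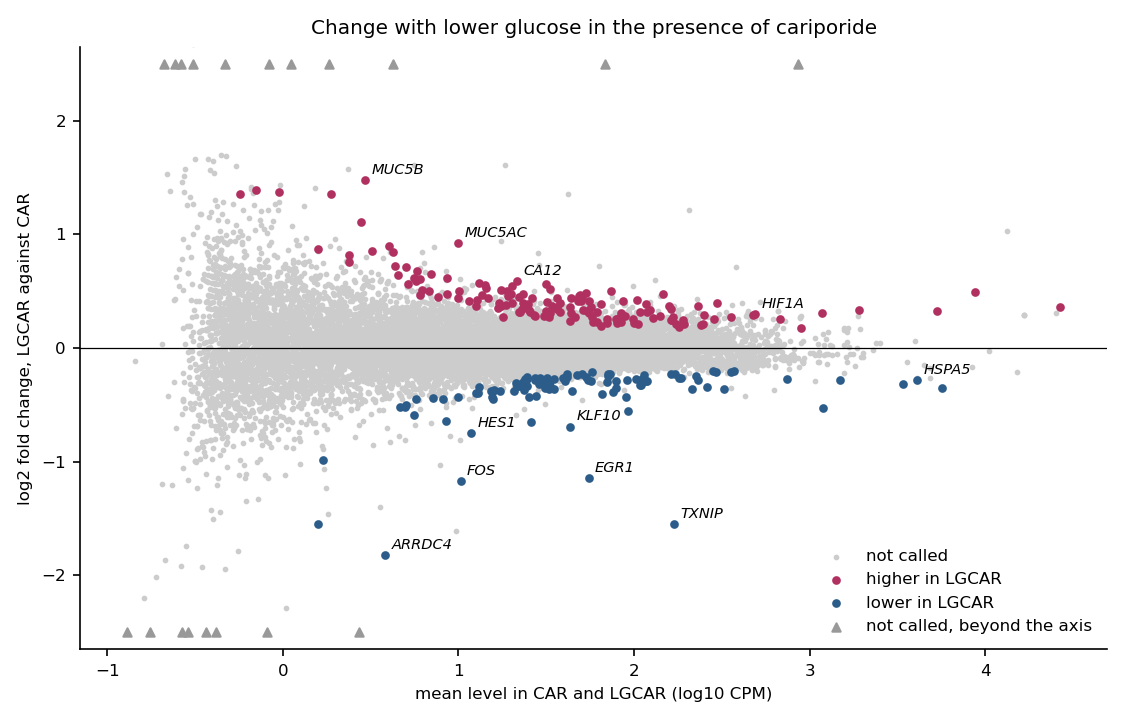
Log2 fold change of LGCAR against CAR (vertical axis) by mean level in the 6 libraries (log10 CPM, horizontal axis) for the 15104 tested genes; coloured points are the 147 genes called higher and the 102 called lower, and triangles at the edge stand for 19 genes beyond the axis, none of them called. Most called genes lie within 1 log2 unit of 0, with TXNIP, ARRDC4, FOS and EGR1 among the few below and MUC5B among the few above.

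Large and steady falls were found in genes that report the glucose supply. TXNIP was at 263, 249 and 245 CPM in CAR 1 to 3 and 84.3, 79.9 and 94.6 CPM in LGCAR 1 to 3, 2.93-fold lower on average and with a wide gap between the groups (log2 fold change -1.55 with SE 0.0744, edgeR adjusted p = 7.80e-09). ARRDC4, the other alpha-arrestin of this pair, was at 6.95, 5.33 and 5.67 CPM in CAR 1 to 3 and 1.52, 1.63 and 1.91 CPM in LGCAR 1 to 3, 3.55-fold lower (log2 fold change -1.83 with SE 0.176, edgeR adjusted p = 4.48e-05). KLF10, a DNA-binding repressor that ChREBP can induce, was at 55.2, 52.9 and 52.4 CPM in CAR 1 to 3 and 33.5, 32.1 and 33.8 CPM in LGCAR 1 to 3 (log2 fold change -0.69 with SE 0.0511, edgeR adjusted p = 1.83e-06). Every CAR library stood above every LGCAR library for all 3 genes, but the groups were separate in all 249 called genes. Of the 10 tested genes on the list of MondoA and ChREBP targets and partners, these 3 fell and 7 were not called. Over all genes tested 0.675% fell. The list's median was -0.07, against 0.01 over all genes. The factors themselves were not called: MLXIP, which encodes MondoA, had a log2 fold change of 0.02, MLXIPL, which encodes ChREBP, of -0.01, and MLX of -0.06. TXNIP, ARRDC4 and KLF10 were called in each of the 6 fits with 1 library left out, and also with the ribosomal share as a covariate.

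TXNIP lies at chromosome 1, 145992435 to 145996579 and ARRDC4 at chromosome 15, 97960703 to 97973833 (RefSeq, GRCh38.p14). The promoters of both arrestin genes are shown because their transcripts had the lowest log2 fold changes among the genes named by rule, and capitals mark the E-box motifs found in the 250 bases before each start. TXNIP is shown at chr1:145996580-145996829 (minus strand), where a match to the core of a carbohydrate response element, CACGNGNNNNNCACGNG, runs from base -88 to base -72. ARRDC4 is shown at chr15:97960453-97960702 (plus strand), where a full E-box, CACGTG, lies from base -210 to base -205.
TXNIP: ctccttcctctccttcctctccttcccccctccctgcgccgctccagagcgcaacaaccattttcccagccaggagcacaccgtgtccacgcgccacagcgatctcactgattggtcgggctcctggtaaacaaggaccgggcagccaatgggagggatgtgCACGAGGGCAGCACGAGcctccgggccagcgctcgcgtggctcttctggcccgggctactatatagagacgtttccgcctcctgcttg
ARRDC4: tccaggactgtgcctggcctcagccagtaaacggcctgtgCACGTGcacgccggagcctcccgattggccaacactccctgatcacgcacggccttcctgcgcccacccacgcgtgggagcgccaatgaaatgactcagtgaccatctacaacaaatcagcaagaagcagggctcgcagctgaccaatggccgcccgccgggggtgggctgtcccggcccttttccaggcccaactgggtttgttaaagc

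Searched on both strands of the RefSeq windows of 300 bases, the paired core occurred in 16 of the 11630 tested genes with a window (0.138%). Of these 16 genes TXNIP was called and 15 were not, and a window at a second TXNIP start held no match. The single E-box was common, in 12.1% of tested genes, 15.6% of those higher and 11.8% of those lower in LGCAR. These matches describe letters in the windows, and no binding was measured.

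The same glucose step without the drug, LG against NG, uses 6 other libraries and so shares none with LGCAR and CAR, although all 12 shared the estimate of spread. It gave 261 called genes (1.73% of those tested). The overlap was 108 genes, 43.4% of the 249 and 41.4% of the 261, with 68 higher and 40 lower in both and none in opposite directions. Of the 249 genes, 241 (96.8%) had the same sign in both comparisons, against 70.7% of all genes tested. Across the 249 genes, which were chosen by one of the 2 changes, Pearson's r between the log2 fold changes was 0.80, against 0.18 over all tested genes. Genes are not independent replicates, and each group's 3 libraries carry their own ribosomal RNA share into every gene.

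The difference between both glucose steps was itself tested, and 1 gene (0.00662% of those tested) passed: TXNIP. Its level was 255, 259 and 278 CPM in NG and 40.6, 49.98 and 48.6 CPM in LG, a log2 fold change of -2.51, while in the presence of cariporide it was -1.55. All 3 LGCAR libraries therefore stood above all 3 LG libraries, and NG and CAR were close together. The interaction was 0.96 on the log2 scale (SE 0.105, edgeR adjusted p = 0.00138), and from 0.87 to 1.02 in the 12 fits with 1 library left out, called in each. With the ribosomal share as a covariate it was 1.002 (edgeR adjusted p = 0.0595). ARRDC4 fell by 1.98 without the drug and by 1.83 with it on the log2 scale, with an interaction of 0.15 (SE 0.256, edgeR adjusted p = 0.9999). KLF10 fell by 0.49 and by 0.69, with an interaction of -0.20 (SE 0.0715, unadjusted p = 0.0141, edgeR adjusted p = 0.9999). At an unadjusted p under 0.05 the interaction gave 473 genes.

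**Figure D3:**
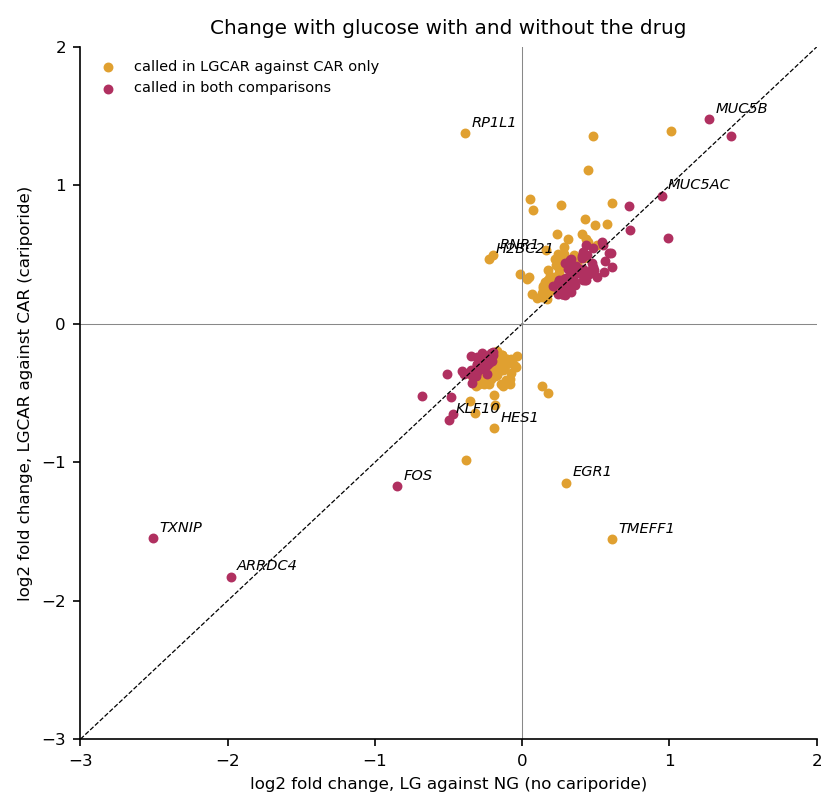
Log2 fold change with lower glucose in the presence of cariporide (LGCAR against CAR, vertical axis) and without it (LG against NG, horizontal axis) for the 249 genes called in the former; colours separate the 108 called in both comparisons from the 141 called with the drug only. TXNIP sits off the diagonal, at -1.55 with the drug and -2.51 without it, and 8 genes have opposite signs.

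Of the 249 genes, 141 were called in the presence of cariporide and not without it, and 8 of those had opposite signs in both comparisons. None of the 8 passed edgeR's test of the difference in the main fit, while DESeq2 called it for EGR1, RNR1 and TMEFF1 (DESeq2 adjusted p = 0.00231, 1.31e-05 and 0.0189). For TMEFF1 edgeR also called it without the filter on low counts (edgeR adjusted p = 0.0337) and without NG 2 (edgeR adjusted p = 0.0250). EGR1, an immediate-early transcription factor, was at 89.9, 77.5 and 60.8 CPM in CAR 1 to 3 and 37.8, 33.2 and 32.0 CPM in LGCAR 1 to 3 (log2 fold change -1.15), but at 47.3, 50.4 and 57.0 CPM in NG and 58.0, 50.4 and 82.4 CPM in LG (log2 fold change 0.30). Its interaction was -1.45 (SE 0.277, unadjusted p = 5.05e-04, edgeR adjusted p = 0.911). Its mean was highest in CAR and lowest in LGCAR of the 4 groups. Among the other 7 were H2BC21, named by rule, and, chosen after their values were seen, NR4A1, TMEFF1, RP1L1 and the mitochondrial ribosomal RNAs RNR1 and RNR2. NR4A1, an orphan nuclear receptor of the same immediate-early class, had a mean of 5.88 ± 0.349 CPM in CAR and 4.16 ± 0.216 CPM in LGCAR, and 5.07 ± 0.508 CPM in NG and 5.73 ± 0.182 CPM in LG (SD, n = 3 each). TMEFF1, a membrane protein gene at low levels, had a mean of 2.38 ± 0.371 CPM in CAR and 0.798 ± 0.246 CPM in LGCAR (SD, n = 3 each, log2 fold change -1.55), against 0.61 without the drug. It was at 0.759, 2.27 and 1.32 CPM in NG and 2.09, 1.96 and 2.59 CPM in LG. Of the 6 fits with 1 library left out, NR4A1 and H2BC21 were called in 0. EGR1, TMEFF1 and RP1L1 were called in 1, RNR2 in 2 and RNR1 in 4.

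Immediate-early genes, which growth signals switch on within minutes, fell where they changed. Of 27 tested members of the list with the ERK feedback genes 4 fell and none rose. Over all genes tested 0.675% fell and 0.973% rose, and the list's median was -0.05. FOS, a subunit of the AP-1 factor, was at 16.2, 14.1 and 12.5 CPM in CAR 1 to 3 and 6.34, 6.74 and 5.96 CPM in LGCAR 1 to 3, 2.25-fold lower (log2 fold change -1.17 with SE 0.115, edgeR adjusted p = 4.68e-05), and without the drug it fell by 0.85 on the log2 scale. In LG against NG it was the 1 fall of this list, while 5 members rose and the median was 0.05. IER2, another early response gene, was at 82.0, 72.9 and 68.9 CPM in CAR and 56.0, 53.9 and 59.0 CPM in LGCAR (log2 fold change -0.41 with SE 0.0709, edgeR adjusted p = 0.00877), and ATF3, a stress-induced factor that also belongs to the ATF4 list, was at 29.3, 26.6 and 31.4 CPM in CAR and 20.98, 21.7 and 22.0 CPM in LGCAR (log2 fold change -0.43 with SE 0.0881, edgeR adjusted p = 0.0210). Their groups did not overlap, as in all 249 called genes, with a gap that was wide for FOS and narrow for ATF3 and IER2. Of the ERK feedback genes, DUSP6 had a log2 fold change of -0.13, SPRY4 of -0.05 and DUSP5 of 0.17, and none of these was called. FOSB had -0.71 and was not called (edgeR adjusted p = 0.0774). The FOS call held with each library left out, whereas EGR1 lost its call without CAR 1, CAR 2, LGCAR 1, LGCAR 2 or LGCAR 3 (edgeR adjusted p up to 0.112), ATF3 without CAR 3 or any 1 LGCAR library (up to 0.107) and IER2 without LGCAR 1 or LGCAR 2 (up to 0.0657). A gene on the other strand covers 30.8% of the exons of IER2.

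**Figure D4:**
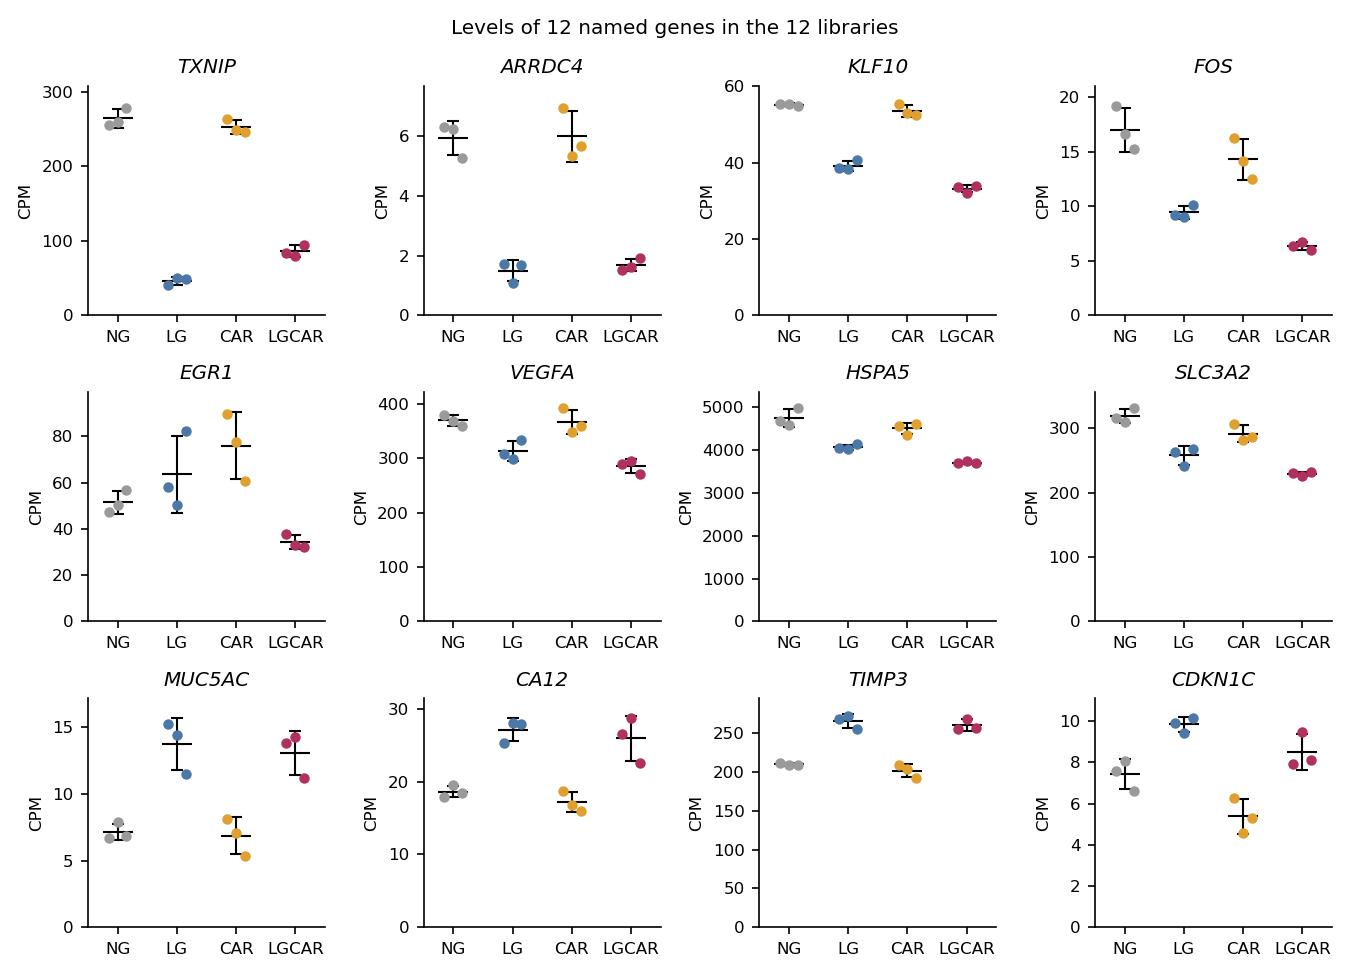
Levels (CPM, vertical axis, each panel with its own scale from 0) of 12 genes in the 3 libraries each of NG, LG, CAR and LGCAR; points are libraries and bars the mean ± SD. In every panel the LGCAR points lie outside the range of the CAR points, and for TXNIP the LGCAR points (79.9 to 94.6 CPM) lie above those of LG.

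Several genes of the integrated stress response fell. The list of ATF4 and its targets had 31 tested members, of which 6 fell and none rose, against 0.675% and 0.973% of all genes tested. Of the 31 members, 26 had a negative log2 fold change, and the median was -0.18, against 0.01 over all genes. SLC3A2, the heavy chain that carries several amino acid transporters to the membrane, was at 307, 282 and 286 CPM in CAR 1 to 3 and 229.99, 227 and 232 CPM in LGCAR 1 to 3 (log2 fold change -0.35 with SE 0.0519, edgeR adjusted p = 0.00354). ASNS, which makes asparagine, was at 122 ± 1.91 CPM in CAR and 101 ± 0.522 CPM in LGCAR (SD, n = 3 each, log2 fold change -0.27 with SE 0.0477, edgeR adjusted p = 0.00875), and PSAT1, of serine synthesis, was at 134, 124 and 134 CPM in CAR and 105, 108 and 107 CPM in LGCAR (log2 fold change -0.29 with SE 0.0565, edgeR adjusted p = 0.0164). All 3 CAR libraries were above all 3 LGCAR libraries for each, but the groups were separate in all 249 called genes. The remaining calls were ATF3, above, and ATF4 itself (-0.28, edgeR adjusted p = 0.0448) with SLC1A5, a glutamine carrier (-0.20, edgeR adjusted p = 0.0303), these last chosen after their values were seen. DDIT3 and TRIB3, of the same response, were not called, at -0.03 and -0.15. With 1 library left out the number of falls was 5 without CAR 1 or CAR 2, 2 without CAR 3 or LGCAR 1, and 1 without LGCAR 2 or LGCAR 3, where SLC3A2 alone stayed called. With the ribosomal share as a covariate SLC3A2 was not called (edgeR adjusted p = 0.0883). Of the 20 aminoacyl-tRNA synthetases, several of which ATF4 induces, 1 fell and 16 had a negative log2 fold change (median -0.10). That 1 was WARS1, for tryptophan, at 202 ± 8.06 CPM in CAR and 168 ± 4.48 CPM in LGCAR (SD, n = 3 each, log2 fold change -0.27 with SE 0.0488, edgeR adjusted p = 0.0122), and it lost its call without LGCAR 1 or LGCAR 3 (up to 0.0711). A neighbour on the same strand covers 44.6% of the exons of ASNS, whose counts may therefore hold reads of that neighbour, and WARS1 is overlapped over 10.6% on the other strand.

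Several chaperones of the endoplasmic reticulum fell by a small amount. The unfolded protein response list had 23 tested members, of which 5 fell and none rose, against 0.675% and 0.973% of all genes tested. In that list 18 had a negative log2 fold change, and the median was -0.13, or -0.09 without CAR 1. HSPA5, which encodes BiP, the main Hsp70 chaperone of this compartment, was at 4556, 4349 and 4596 CPM in CAR 1 to 3 and 3689, 3731 and 3682 CPM in LGCAR 1 to 3 (log2 fold change -0.28 with SE 0.0517, edgeR adjusted p = 0.0122). HYOU1, the exchange factor that helps BiP, was at 805, 799 and 839 CPM in CAR 1 to 3 and 679.8, 666 and 671 CPM in LGCAR 1 to 3 (log2 fold change -0.28 with SE 0.0437, edgeR adjusted p = 0.00462). The groups were separate for both genes, as in all 249 called genes, and the LGCAR libraries lay within a narrow band. DNAJB11, a J-protein partner of BiP, was at 122 ± 10.2 CPM in CAR and 97.1 ± 3.81 CPM in LGCAR (SD, n = 3 each, log2 fold change -0.33), and the other 2 called members, DNAJB9 (-0.23) and SDF2L1 (-0.33), were chosen after their values were seen. XBP1, ATF6 and ERN1, which encode sensors and a transducer of this response, were not called, at -0.09, 0.06 and -0.02. HYOU1 kept its call with each library left out, HSPA5 lost it without LGCAR 1, LGCAR 2 or LGCAR 3 (up to 0.0721) and DNAJB11 without CAR 3 or any 1 LGCAR library (up to 0.102), which left 1 call in the list without any 1 of the LGCAR libraries. In LG against NG HSPA5 had -0.22 and HYOU1 -0.24, both called.

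The promoter of HSPA5 is shown because it holds the sequence through which the unfolded protein response is known to act. It lies at chr9:125241344-125241593 (minus strand, RefSeq, GRCh38.p14), and the capitals mark a match to the endoplasmic reticulum stress element, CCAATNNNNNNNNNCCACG, from base -66 to base -48 of the gene's start.
HSPA5: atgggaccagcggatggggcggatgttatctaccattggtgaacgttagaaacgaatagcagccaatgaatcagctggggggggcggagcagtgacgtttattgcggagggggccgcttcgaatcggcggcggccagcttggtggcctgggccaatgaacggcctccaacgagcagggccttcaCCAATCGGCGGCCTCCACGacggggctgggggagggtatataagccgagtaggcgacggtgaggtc

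This element occurred in 16 of the 11630 genes with a window (0.138%), of which HSPA5 was the called one. The window of HYOU1 held no match to these letters, and other arrangements of the element's parts were not searched. The CCAAT box that begins it was found in 42.5% of tested genes, in 40.4% of those higher and 52.9% of those lower. The amino acid response element TGATGNAA, a binding sequence of ATF4, was in 2.74% of tested genes, 3.67% of those higher and 4.71% of those lower. The AP-1 sequence TGANTCA was in 7.36%, 11.01% and 4.71% in the same order. These shares were not tested, and the CCAAT box and the stress element overlap.

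Several cytosolic chaperones of the heat shock response fell too. Of 22 tested members 5 fell and none rose, against 0.675% and 0.973% of all genes tested. In that list 20 had a negative log2 fold change, and the median was -0.14, or -0.08 with the ribosomal share as a covariate. HSPA1A, an inducible Hsp70, was at 116, 105 and 116 CPM in CAR and 96.3, 91.0 and 91.6 CPM in LGCAR (log2 fold change -0.27 with SE 0.0516, edgeR adjusted p = 0.0141). CHORDC1, a co-chaperone of Hsp90, was at 60.6, 59.5 and 60.5 CPM in CAR and 49.2, 52.3 and 47.1 CPM in LGCAR (log2 fold change -0.28 with SE 0.0563, edgeR adjusted p = 0.0196). HSPA1B had a mean of 383 ± 7.92 CPM in CAR and 331 ± 7.93 CPM in LGCAR (SD, n = 3 each, log2 fold change -0.21), but it is nearly identical to HSPA1A and shares 36.5% of its exons with a same-strand gene, and reads of both may have been split between them. The called J-proteins DNAJB1 (-0.23) and DNAJA1 (-0.24) were chosen after their values were seen. The number of falls was 5 without CAR 2, 3 without CAR 1, 1 without LGCAR 1 or LGCAR 2 and 0 without CAR 3 or LGCAR 3, with edgeR adjusted p up to 0.0768 for HSPA1A. In LG against NG 6 members of the list fell, with a median of -0.18.

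**Figure D5:**
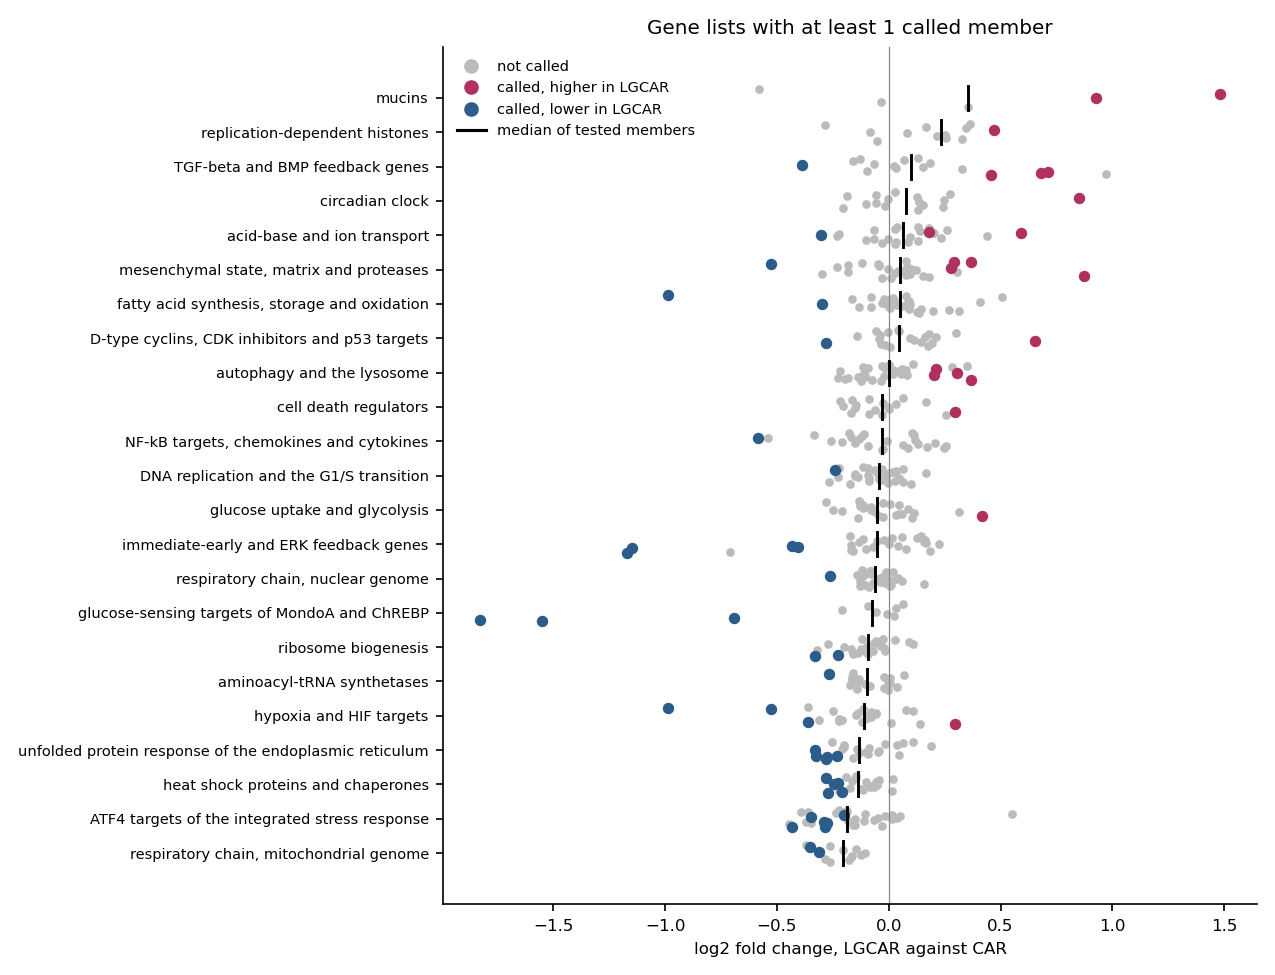
Log2 fold change of LGCAR against CAR (horizontal axis) for the tested members of each gene list with at least 1 called member (vertical axis); coloured points are called genes, grey points are not called, and the black mark is the list's median. Called members of the stress response and chaperone lists lie to the left, with medians of -0.18, -0.13 and -0.14, while those of the lysosome and mucin lists lie to the right.

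Mitochondrial and ribosomal transcripts showed small shifts in 1 direction with few calls. All 13 protein-coding genes of the mitochondrial genome had a negative log2 fold change, from -0.37 for ATP8 to -0.11 for ND6. Their median was -0.21, against 0.01 over all genes tested. These transcripts come from long shared precursors, so they are not independent. CYTB, of complex III, was at 4091, 3563 and 3611 CPM in CAR and 3069, 3069 and 2929 CPM in LGCAR (log2 fold change -0.31 with SE 0.0747, edgeR adjusted p = 0.0447), and COX3, of complex IV, was at 7124, 5659 and 6231 CPM in CAR and 5192, 4996 and 4689 CPM in LGCAR (log2 fold change -0.35 with SE 0.0856, edgeR adjusted p = 0.0472), and these 2 fell. Over all genes tested 0.675% fell. In the same libraries both mitochondrial ribosomal RNAs, chosen after their values were seen, were higher, RNR1 with 0.49 and RNR2 with 0.36. Without the drug the median of the 13 genes was 0.01. The CYTB call was lost with any 1 library left out (edgeR adjusted p up to 0.171), and the COX3 call without CAR 1, CAR 3, LGCAR 1, LGCAR 2 or LGCAR 3 (up to 0.191). Their share of the counts moved with the ribosomal RNA share, and with the cytosolic ribosomal share as a covariate the median of the 13 genes was -0.02.

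Nuclear genes of the respiratory chain had 1 call in 28 tested members, against 1.65% of all genes called. It was CYCS, which encodes cytochrome c, at 197 ± 11.7 CPM in CAR and 165 ± 7.54 CPM in LGCAR (SD, n = 3 each, log2 fold change -0.26). The CYCS call was lost without CAR 1, CAR 3 or any 1 LGCAR library (edgeR adjusted p up to 0.180). None of 30 cytosolic ribosomal protein genes was called, although all 30 had a negative log2 fold change (median -0.11), with the smallest p for RPL27 at -0.18 (edgeR adjusted p = 0.153). Of 25 ribosome biogenesis genes, NOP56 and NOP58, core proteins of the particles that methylate ribosomal RNA, fell with -0.33 and -0.23, and 22 of the 25 were negative. NOP56 lost its call without any 1 LGCAR library (up to 0.0941) and NOP58 without any 1 of the 6 libraries (up to 0.162). The median of the ribosomal proteins was negative under each scaling tried, down to -0.17 with library totals alone, but it was -0.04 without CAR 1 and 0.01 with the share of cytosolic ribosomal RNA as a covariate.

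Inhibitors of matrix metalloproteinases were among the called genes. TIMP3, a matrix-bound inhibitor of metalloproteinases, rose, at 209, 203 and 192 CPM in CAR 1 to 3 and 254, 268 and 256 CPM in LGCAR 1 to 3 (log2 fold change 0.37 with SE 0.0468, edgeR adjusted p = 0.00108), and so did TIMP2, at 441, 414 and 426 CPM in CAR and 522, 526 and 521 CPM in LGCAR (log2 fold change 0.29 with SE 0.0444, edgeR adjusted p = 0.00390). The other TIMP of the list, TIMP1, was not called (-0.12). Of the 28 tested genes of the mesenchymal state, matrix and proteases 4 rose and 1 fell (median 0.05). Over all genes tested 0.973% rose and 0.675% fell. VIM, FN1 and ZEB1 were not called, at 0.01, -0.03 and 0.15. The 2 other rises, of the laminin receptor subunit ITGA6 (0.28) and of the epithelial cadherin CDH1 (0.87), were chosen after their values were seen. CDH1 was at 0.981, 0.954 and 1.41 CPM in CAR and 1.72, 2.47 and 1.97 CPM in LGCAR, in a line that is known for having lost it. The CDH1 call did not hold with any 1 of the 6 libraries left out. TIMP3 and TIMP2 were called with each library left out, and with the ribosomal share as a covariate TIMP3 stayed called and TIMP2 did not (edgeR adjusted p = 0.0569). Rises in the list numbered 3 without CAR 2 and 2 without any other 1 of the 6 libraries.

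Genes of the hypoxia response mostly had negative values while HIF1A rose. HIF1A, the oxygen-regulated subunit, was at 419, 449 and 449 CPM in CAR and 544, 558 and 517 CPM in LGCAR (log2 fold change 0.30 with SE 0.0470, edgeR adjusted p = 0.00462), and VEGFA, the vessel growth factor it can induce, was at 392, 349 and 359 CPM in CAR and 290.3, 295 and 270.4 CPM in LGCAR (log2 fold change -0.36 with SE 0.0573, edgeR adjusted p = 0.00462). Both groups were separate for both genes, as in all 249 called genes, in opposite directions. Of 26 tested members 1 rose and 3 fell, against 0.973% and 0.675% of all genes tested. In that list 21 had a negative log2 fold change, and the median was -0.11. Another fall was in ANGPTL4, a secreted inhibitor of lipoprotein lipase at low levels, with 2.12, 2.12 and 2.49 CPM in CAR and 0.737, 1.46 and 1.22 CPM in LGCAR (log2 fold change -0.99 with SE 0.225, edgeR adjusted p = 0.0372). CA9, a classic HIF target, was not called (-0.22, edgeR adjusted p = 0.342). VEGFA was called with each library left out, but not with the ribosomal share as a covariate (edgeR adjusted p = 0.104) or with the GC and length trend taken out (0.0722). HIF1A lost its call without LGCAR 2 (edgeR adjusted p = 0.0592) and ANGPTL4 with any 1 library left out (up to 0.167). In LG against NG HIF1A had 0.34 and VEGFA -0.24, both called.

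Gel-forming mucins showed the largest rises among the genes named by rule. MUC5B was at 1.84, 1.73 and 1.08 CPM in CAR 1 to 3 and 3.73, 4.60 and 4.73 CPM in LGCAR 1 to 3, 2.79-fold higher (log2 fold change 1.48 with SE 0.185, edgeR adjusted p = 0.00101). MUC5AC, its neighbour on chromosome 11 (1157953 to 1201138, with MUC5B at 1223066 to 1262172), was at 8.16, 7.11 and 5.38 CPM in CAR 1 to 3 and 13.9, 14.3 and 11.2 CPM in LGCAR 1 to 3, 1.90-fold higher (log2 fold change 0.93 with SE 0.146, edgeR adjusted p = 0.00526). No LGCAR library was as low as any CAR library for either gene, but the groups were separate in all 249 called genes and in 25.3% of all genes tested. Of 5 tested mucin genes these 2 rose and 3 were not called, while over all genes tested 0.973% rose. A negative log2 fold change was found in 2 of the 5, the lowest MUC20 (-0.58). The membrane mucin MUC1 was among those not called (0.35, edgeR adjusted p = 0.122). Both were called with each library left out and rose in LG against NG as well, by 1.27 and 0.95 on the log2 scale. With the ribosomal share as a covariate MUC5B stayed called and MUC5AC did not (edgeR adjusted p = 0.0763).

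Genes linked to BMP signalling, the branch of the TGF-beta family that acts through SMAD1 and its relatives, held several rises. Of 16 tested members of the TGF-beta and BMP list 3 rose and 1 fell. Over all genes tested 0.973% rose and 0.675% fell, and the list's median was 0.10. SMAD6, which blocks BMP receptors, was at 3.61, 3.82 and 3.98 CPM in CAR and 6.29, 5.78 and 6.60 CPM in LGCAR (log2 fold change 0.71 with SE 0.124, edgeR adjusted p = 0.00875), and ID3, a repressor of helix-loop-helix factors, was at 4.08, 5.03 and 4.22 CPM in CAR and 6.14, 8.48 and 6.81 CPM in LGCAR (log2 fold change 0.68 with SE 0.134, edgeR adjusted p = 0.0181). ID1, its paralog, chosen after its value was seen, was at 17.2, 16.4 and 14.6 CPM in CAR and 21.3, 20.7 and 24.1 CPM in LGCAR (log2 fold change 0.46 with SE 0.0927, edgeR adjusted p = 0.0210). The fall was in PMEPA1, a TGF-beta induced gene that restrains SMAD2 and SMAD3, at 83.4, 85.7 and 89.8 CPM in CAR and 63.8, 64.6 and 69.8 CPM in LGCAR (log2 fold change -0.39 with SE 0.0533, edgeR adjusted p = 0.00252). SMAD7, the general inhibitor, was not called (-0.10). PMEPA1 was called with each library left out, SMAD6 lost its call without LGCAR 3 (edgeR adjusted p = 0.0530) and ID3 without CAR 1, CAR 3, LGCAR 2 or LGCAR 3 (up to 0.116), and the rises numbered 3 without CAR 1 or CAR 2, 2 without LGCAR 1, 1 without CAR 3 or LGCAR 2 and 0 without LGCAR 3.

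Among 24 tested acid-base and ion transport genes 2 rose and 1 fell (median 0.06), against 0.973% and 0.675% of all genes tested. CA12, a carbonic anhydrase with its active site outside the cell, was at 18.8, 16.8 and 15.99 CPM in CAR 1 to 3 and 26.5, 28.7 and 22.6 CPM in LGCAR 1 to 3, 1.51-fold higher (log2 fold change 0.59 with SE 0.0871, edgeR adjusted p = 0.00332). SLC26A6, an anion exchanger that can carry bicarbonate, was at 35.7, 31.8 and 29.6 CPM in CAR and 25.5, 26.6 and 26.8 CPM in LGCAR (log2 fold change -0.30 with SE 0.0708, edgeR adjusted p = 0.0425). Among the 21 members not called was the bicarbonate carrier SLC4A7 (0.10). CA12 was called with each library left out and rose by 0.54 without the drug. SLC26A6 lost its call without CAR 1, CAR 2 or any 1 LGCAR library (edgeR adjusted p up to 0.167).

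Genes of sugar uptake and breakdown held 1 call. Of 26 tested genes of glucose uptake and glycolysis 1 rose, against 1.65% of all genes called, SLC2A12, a glucose transporter, at 9.93, 9.76 and 9.73 CPM in CAR and 10.9, 14.5 and 13.9 CPM in LGCAR (log2 fold change 0.41 with SE 0.102, edgeR adjusted p = 0.0493), and it lost its call without CAR 1, CAR 2, CAR 3, LGCAR 2 or LGCAR 3 (up to 0.215). A gene on the other strand covers 38.9% of its exons. The main transporter SLC2A1 (-0.14), HK2 (0.03), PFKFB3 (-0.21), LDHA (-0.13) and the lactate carrier SLC16A1 (-0.28) were not called, and the list's median was -0.05. None of the tested genes was called among 21 of the pentose phosphate, hexosamine and glycogen routes, 24 of the citrate cycle and pyruvate entry, 24 of AMPK and mTORC1 control, 25 of NRF2 and redox control and 25 of cholesterol synthesis and uptake. Among the smallest p of these lists were those of OGT, which attaches N-acetylglucosamine to proteins (-0.18, edgeR adjusted p = 0.0651), SESN2, a leucine sensor (-0.35, adjusted p = 0.0750), HMOX1, heme oxygenase (-0.21, adjusted p = 0.132) and LSS, of sterol synthesis (0.16, adjusted p = 0.0853). In 28 lipid genes PLIN2, a coat protein of lipid droplets, fell together with ANGPTL4, at 77.1 ± 5.06 CPM in CAR and 62.7 ± 0.707 CPM in LGCAR (SD, n = 3 each, log2 fold change -0.30 with SE 0.0581, edgeR adjusted p = 0.0163), and lost its call without any 1 LGCAR library (up to 0.0835).

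Lysosomal genes gave 4 rises and no fall in 33 tested members, against 0.973% and 0.675% of all genes tested, with a median of 0.00. CTSD, the protease cathepsin D, was at 1145, 1024 and 976 CPM in CAR and 1273, 1297 and 1315 CPM in LGCAR (log2 fold change 0.30 with SE 0.0560, edgeR adjusted p = 0.0122), NPC1, a cholesterol exporter, had a mean of 179 ± 6.18 CPM in CAR and 207 ± 8.46 CPM in LGCAR (log2 fold change 0.21), and LAMP2, a membrane glycoprotein, had 224 ± 2.85 CPM in CAR and 258 ± 12.2 CPM in LGCAR (SD, n = 3 each, log2 fold change 0.20). MITF, a relative of TFEB that can drive such genes, was the fourth (0.37), chosen after its value was seen. Of the list's genes of autophagy, MAP1LC3B (-0.20) and SQSTM1 (-0.08) were not called. The rises numbered 2 without CAR 2, 1 without CAR 1 and 0 without CAR 3 or any 1 LGCAR library, with edgeR adjusted p up to 0.0875 for CTSD. Another same-strand gene covers 41.7% of the exons of CTSD.

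Lists of growth and division genes were of 27, 31 and 21 tested members, with 3 calls in all, against 1.65% of all genes called. None of 27 mitotic genes was called (median 0.03, and -0.02 with library totals as the only scaling), with the smallest p for CDC25B, the phosphatase that activates CDK1 (0.11, edgeR adjusted p = 0.243), and of 31 replication genes RRM2, a subunit of ribonucleotide reductase, fell (log2 fold change -0.24 with SE 0.0585, edgeR adjusted p = 0.0479). Of 21 cyclin, CDK inhibitor and p53 target genes CDKN1C, which encodes the inhibitor p57, rose, at 6.28, 4.60 and 5.30 CPM in CAR and 7.91, 9.49 and 8.14 CPM in LGCAR (log2 fold change 0.65 with SE 0.123, edgeR adjusted p = 0.0140), and CDKN1A, which encodes p21, fell, at 105, 96.0 and 99.9 CPM in CAR and 83.3, 82.3 and 82.0 CPM in LGCAR (log2 fold change -0.28 with SE 0.0614, edgeR adjusted p = 0.0319). The other inhibitor of this family, CDKN1B, was not called (0.14). BCL2L11, which encodes the death-promoting BIM, was the 1 call among 19 cell death regulators (0.29, edgeR adjusted p = 0.0445), and the histone H2BC21 the 1 among 12 (0.47, edgeR adjusted p = 0.0428), with near-identical copies elsewhere. CDKN1C lost its call without CAR 3, LGCAR 2 or LGCAR 3 (up to 0.102), CDKN1A without CAR 1, CAR 3 or any 1 LGCAR library (up to 0.119) and RRM2 without any 1 library other than CAR 1 (up to 0.194), and BCL2L11 and H2BC21 without any 1 of the 6 (up to 0.200 and 0.167).

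Lists of inflammatory, YAP and interferon genes, of 25, 20 and 22 tested members, held 1 call, against 1.65% of all genes called. IL1B, an inflammatory cytokine, was the 1 fall among 25 NF-kB targets, chemokines and cytokines, at 6.79, 6.33 and 6.92 CPM in CAR and 4.86, 3.59 and 4.84 CPM in LGCAR (log2 fold change -0.59 with SE 0.125, edgeR adjusted p = 0.0276), and CXCL8 and IL6 were not called, at -0.01 and -0.13. In LG against NG 4 members of that list rose and none fell. None of 20 YAP and TEAD genes was called, although 17 had a positive log2 fold change (median 0.17, and 0.06 with the ribosomal share as a covariate), with the smallest p for CRIM1, a BMP-binding membrane protein (0.27, edgeR adjusted p = 0.0750). None of 22 interferon response genes was called, with the smallest p for IRF1 at -0.19 (edgeR adjusted p = 0.153). Of 16 clock genes DBP, an output factor of the circadian oscillator, rose, at 3.65, 2.30 and 3.15 CPM in CAR and 5.45, 4.83 and 6.17 CPM in LGCAR (log2 fold change 0.85 with SE 0.166, edgeR adjusted p = 0.0177), while PER2, BMAL1 and NR1D1 had -0.02, -0.21 and 0.14 and were not called. IL1B lost its call without CAR 1, CAR 3 or any 1 LGCAR library (up to 0.124), and DBP without CAR 2, CAR 3, LGCAR 1 or LGCAR 3 (up to 0.0929).

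The rule on size named further genes outside these lists. MIR22HG, the host transcript of microRNA 22, was at 33.9, 32.4 and 28.95 CPM in CAR 1 to 3 and 20.2, 20.3 and 20.2 CPM in LGCAR 1 to 3 (log2 fold change -0.65 with SE 0.0711, edgeR adjusted p = 1.73e-04), and it was called with each library left out. HES1, a repressor downstream of Notch, had a mean of 14.9 ± 2.91 CPM in CAR and 8.85 ± 0.347 CPM in LGCAR (-0.75), SERTAD1, a cell cycle regulator that binds CDK4, of 10.4 ± 1.44 CPM in CAR and 6.62 ± 0.942 CPM in LGCAR (-0.65), and LCN2, an iron-siderophore carrier, of 109 ± 15.1 CPM in CAR and 74.5 ± 2.76 CPM in LGCAR (-0.55; SD, n = 3 each). These fell, and among the rises were SOCS1, an inhibitor of cytokine signalling, with 3.30 ± 0.897 CPM in CAR and 5.46 ± 0.172 CPM in LGCAR (0.72), MAP2, a microtubule-binding protein, with 3.52 ± 0.389 CPM in CAR and 5.50 ± 0.403 CPM in LGCAR (0.65), RNF144A, a ubiquitin ligase, with 6.81 ± 0.0541 CPM in CAR and 10.4 ± 0.624 CPM in LGCAR (0.62), and LRRC15, a leucine-rich repeat membrane protein, with 4.76 ± 0.399 CPM in CAR and 7.26 ± 0.658 CPM in LGCAR (0.61). Each of these 7 lost its call in at least 1 fit with a library left out: RNF144A without LGCAR 3 (edgeR adjusted p = 0.0564), SERTAD1 without LGCAR 1 or LGCAR 2 (up to 0.0777), HES1 without any 1 LGCAR library (up to 0.0729), LCN2 without any 1 library other than CAR 3 (up to 0.111), MAP2 without any 1 other than CAR 2 (up to 0.112), SOCS1 without any 1 other than CAR 1 (up to 0.124) and LRRC15 without any 1 of the 6 (up to 0.129).

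Across the 6 fits with 1 library left out, 35 of the 249 genes were called each time, 21 higher and 14 lower, and 43 were called in none of them. Of the 35 genes 33 were also called in LG against NG. The 2 that were not are GPRIN2, a G protein regulated inducer of neurite outgrowth, at 2.002, 1.39 and 1.86 CPM in CAR and 3.64, 4.10 and 3.67 CPM in LGCAR (log2 fold change 1.11, and 0.44 without the drug), and PABPC1L, a poly(A)-binding protein, at 86.3, 87.9 and 86.0 CPM in CAR and 74.3, 68.0 and 70.7 CPM in LGCAR (-0.29, and -0.06 without the drug). Their interactions had unadjusted p = 0.0164 and unadjusted p = 0.00428 (edgeR adjusted p = 0.9999 for both). Others of the 35, like these 2 chosen after their values were seen, were ATOH8, a helix-loop-helix factor, with 1.05 ± 0.197 CPM in CAR and 2.69 ± 0.0768 CPM in LGCAR (1.35), TGFBR3, a co-receptor for TGF-beta, with 16.3 ± 0.164 CPM in CAR and 23.9 ± 0.619 CPM in LGCAR (0.55), SORL1, a sorting receptor, with 27.3 ± 2.18 CPM in CAR and 39.0 ± 0.278 CPM in LGCAR (0.52), DUSP10, a phosphatase of stress kinases, with 43.0 ± 1.03 CPM in CAR and 57.3 ± 4.88 CPM in LGCAR (0.41) and JMJD6, a lysine hydroxylase, with 31.6 ± 1.32 CPM in CAR and 23.6 ± 0.876 CPM in LGCAR (-0.42; SD, n = 3 each). ATOH8, TGFBR3, SORL1, DUSP10 and JMJD6 were called in the same direction without the drug.

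Higher and lower genes differed in length. The median length of the longest transcript (GENCODE 29) was 5637 bases for genes higher in LGCAR, 2738 for those lower and 3595 for all tested genes, with a value for 95.2%, 98.0% and 90.6% of them. The GC content of these transcripts had medians of 48.2%, 50.3% and 48.3%. Protein-coding genes made up 91.8%, 92.2% and 85.1%. Once a trend over GC content and length was taken out, 699 genes were called, 233 of them among the 249. The part of transcript length in the calls was otherwise not tested. Overlap with other genes also touches RRM2, whose exons a same-strand gene covers over 20.2%, and, for genes of the other strand, IRF1 (22.0%), DNAJB11 (15.3%), BCL2L11 (10.9%) and DBP (10.1%).

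Markers of the cell line were present, and markers of other cell types ranged from near 0 to high levels. The 9 markers of MDA-MB-231 summed to 5289 to 5352 CPM in CAR and 5507 to 5607 CPM in LGCAR, and none was called. Of the hormone receptors, PGR was at 0 in all 6 libraries and ESR1 averaged 0.0544 CPM in CAR and 0.0164 CPM in LGCAR. Markers of fibroblasts summed to 19.7 to 20.5 CPM in CAR and 20.7 to 22.1 CPM in LGCAR, with DCN and THY1 at 0. Most of that sum was PDGFRB, with means of 10.2 CPM in CAR and 12.5 CPM in LGCAR, and COL1A1, with 8.87 and 7.82 CPM. White blood cell markers summed to 58.4 to 65.8 and 64.2 to 67.8 CPM, nearly all of it CD68, with CD3E and MS4A1 at 0. Endothelial markers summed to 4.68 to 4.87 and 5.27 to 6.43 CPM, with CLDN5 at 0. Most of that sum was KDR, with means of 2.75 CPM in CAR and 3.57 CPM in LGCAR, and PECAM1, with 1.68 and 2.01 CPM. The 8 basal and myoepithelial markers summed to 126 to 143 CPM in CAR and 187 to 191 CPM in LGCAR, which was the contractile gene MYLK (0.47) and the oxytocin receptor OXTR (0.57), both called, while the defining keratins KRT5 and KRT14 were at or near 0. The 11 luminal markers summed to 1167 to 1321 CPM in CAR and 1115 to 1210 CPM in LGCAR. KRT8, KRT18 and KRT19 made up most of it. Their means were 461, 381 and 294 CPM in CAR and 443, 343 and 273 CPM in LGCAR, and none of them was called. Of 8 tested 1 was called, CDH1, against 1.65% of all genes tested. CDH1 lost its call with any 1 library left out. In bulk samples a change in the share of cells of a kind and a change in RNA per cell cannot be told apart.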

How the data were processed

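RNA sequencing of 12 MDA-MB-231 libraries was analysed, 3 in each of 4 groups, with the comparison of LGCAR with CAR as the subject. Total RNA was made into libraries with a strand-marking kit, per the labels' protocols. The deposited values were whole-number counts per gene symbol, 1 table per library, with no normalization. The submitters' processing notes name GRCh38 and the tools GATK, Salmon, STAR and fastp, with no version. The counting tool and its strand setting remain not given in the sources used here.

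Counts were scaled by TMM, and edgeR 4.0.16 (R 4.3.3) fitted its robust quasi-likelihood model to all 12 libraries with 1 mean per group, after filterByExpr over the 4 groups. P-values were adjusted by Benjamini and Hochberg over the 15104 genes, CPM are TMM-scaled, and the common coefficient of variation was 6.94%. The interaction is the LGCAR minus CAR change less the LG minus NG change. The members, gene lists, tests and alternatives were chosen with earlier results of these data known, and lists are described by counts and medians only. Genes were named by rule: TXNIP and ARRDC4, the 10 highest and 10 lowest fold changes among called genes whose groups did not overlap and whose higher group averaged 5 CPM or more, symbols that are locus numbers left out, up to 3 called members of each list (or the 1 with the smallest p), and called interaction genes. Other genes, uncalled list members given for context among them, were picked after their values were known. A few genes picked by the rule are not reported here.

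Coordinates and promoters are those of RefSeq on GRCh38.p14, where 98.9% of the tested symbols were found, and exon overlap, length and GC content come from GENCODE 29. The procedure was tested on simulated data. Alternatives were other scalings and filters, DESeq2 1.42.0, limma-voom (limma 3.58.1), other fits and each library left out, and the trend on GC content and length was added after the data were seen. No 2 libraries of a group agreed within counting error (chi-square per degree of freedom 2.79 to 23.8). Figures were drawn with matplotlib 3.10.9 in Python 3.11.15.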

Additional observations from a re-analysis of the deposited data

Results flagged for a closer look

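TXNIP was the 1 gene whose change with glucose differed between cells with and without cariporide by the test of that difference. The interaction was 0.9590 on the log2 scale (edgeR adjusted p = 0.00138), with a fall of 2.51 without the drug and of 1.55 with it, and all 3 LGCAR libraries lay above all 3 LG libraries. Groups of 3 libraries were not tested for single outlying values.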

How the results depend on the processing

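The 249 calls between LGCAR and CAR became 249 with DESeq2's size factors in edgeR, 351 with library totals alone, 248 with upper-quartile scaling, 246 with a minimum mean of 5 CPM, 219 with limma-voom, 244 without ribosomal RNA genes and 197 in a fit to the 6 libraries. They moved by more than 1.5 times without the filter (391), with DESeq2 (416), with the ribosomal RNA share as a covariate (18), with a GC and length trend taken out (699, added after the data were seen) and with a limit of 1.2-fold (8), and ranged from 49 to 190 with 1 library left out. The labels do not say whether replicate numbers pair the libraries. Deviations of CAR and LGCAR libraries with the same number correlated at -0.06, 0.03 and 0.04. Not every library correlated best with its own number. With 3 libraries in a group these values cannot decide whether the libraries were paired. With the replicate block 135 genes were called, 131 of them among the 249. The glucose change without cariporide, 261 calls, gave 147 with the replicate block, 586 with the ribosomal share as a covariate, 727 with the trend removed and 82 to 477 with 1 library left out. The interaction, 1 call, gave 2 without the filter (TXNIP and TMEFF1), 5 with DESeq2 and 0 with the ribosomal share as a covariate (TXNIP 1.002, edgeR adjusted p = 0.0595). It gave 1 to 3 with 1 library left out, where the added genes AHRR, MIRLET7BHG and TMEFF1 came with NG 1 or NG 2 absent, chosen after their values were seen. Over the reported named genes and settings, 833 values kept direction and side of the threshold, 259 lost their call, 17 gained one and none changed sign. Depth limits genes of a few CPM most, and the causes of these differences were not tested.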
